A study of Mus musculus with 8 samples.

Results

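Tight junctions seal the space between neighbouring epithelial cells and set which ions pass through it. The genes described here are 43 mouse claudin and tight junction genes, chosen by symbol among the 42416 gene identifiers of the count tables. They comprise all 23 numbered claudins found, and 20 genes for occludin and its MARVEL relatives, junctional adhesion molecules, zonula occludens scaffolds, cingulins, multi-PDZ scaffolds and angiomotins. The rule reads symbols and no measured value, but it was set with earlier results of these data known. After a minimum of 10 counts in at least 4 libraries, 34 of the 43 were tested, 14 claudins and 20 others.

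The RNA came from sorted pieces of distal convoluted tubule from mice, the nephron segment with the thiazide-sensitive NaCl cotransporter, 1000 pieces to each of 8 libraries. The 4 Control libraries came from animals labelled Cnb1fl wt with NCCcre Tg/+ and TOMATO Tg/+, and the 4 KO libraries from animals labelled Cnb1fl Tg/Tg with the same Cre and reporter. Cnb1 (gene symbol Ppp3r1) encodes the regulatory B subunit of calcineurin, a calcium-dependent phosphatase. The Cre transgene is named for the NaCl cotransporter, so recombination is directed to cells that express it, and all animals of both groups were gavaged with 2 mg of tamoxifen daily for 5 days, 3 weeks before the tubules were collected. The labels give each library its own animal number and give no age, sex or strain.

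Claudins are 4-span membrane proteins whose outer loops meet between cells. Some, such as claudins 2, 10, 15 and 16, form or help to form ion pores, and others, such as claudins 1, 3, 4, 7 and 8, mainly form barriers. Their inner tails bind the PDZ domains of the ZO proteins, which link the strand to actin, while cingulins, MAGI proteins, PATJ and MPDZ extend this scaffold. Along the nephron each segment holds its own claudin mixture: claudin-2 is known for the leaky proximal tubule, claudins 16 and 19 for the thick ascending limb, where they serve calcium and magnesium reabsorption, and claudins 3, 4, 7 and 8 for the distal nephron.

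Total counts ranged from 18161442 to 45150953 per library, and the 43 genes held 0.203% of all counts. Mitochondrially encoded genes took 17.0% to 19.1% of counts in Control and 13.4% to 18.4% in KO. The targeted gene Ppp3r1 was at 108, 97.3, 99.7 and 84.2 CPM (read counts relative to library size, with TMM factors) in Control replicates 1 to 4, and at 80.7, 74.0, 97.6 and 92.4 CPM in KO replicates 1 to 4. Its groups overlapped (log2 fold change -0.18 ± 0.13 SE, edgeR adjusted p = 0.55), so the genotype labels are not checked by this gene's count. The segment's defining transcript Slc12a3 (the NaCl cotransporter) was present in every library, at 5648 to 8035 CPM in Control. In KO replicates 1 to 4 it was at 8074, 4518, 3907 and 3972 CPM, with overlap only through KO replicate 1. The log2 fold change of Slc12a3 was -0.41 ± 0.25 (SE, edgeR adjusted p = 0.492). The summed level of 9 distal convoluted tubule markers was 11040 to 15448 CPM in Control and 6144 to 10203 CPM in KO, without overlap. Of the 9, 5 fell and 1, Tfap2b, rose (log2 fold change 0.63, edgeR adjusted p = 0.0281), where 0.838% of all genes tested fell and 1.23% rose. Without Calb1, a calcium-binding protein gene at 2017 to 3872 CPM in Control and 215 to 872 CPM in KO, the sums overlapped, at 9022 to 11575 CPM and 5834 to 9988 CPM. With any other single marker left out instead, the sums stayed apart. Without Slc12a3, which made up 42.7% to 79.1% of the sum, they were 4766 to 7593 CPM in Control and 2129 to 2810 CPM in KO. In tissue fragments, fewer cells of a type and less RNA per cell cannot be told apart.

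None of the 34 tested genes differed between KO and Control after adjustment over all genes. By edgeR's quasi-likelihood test, 0 of 34 had an adjusted p under 0.05, against 2.06% of all 14444 genes tested (177 higher and 121 lower in KO). At an unadjusted p under 0.05, 4 of 34 (11.8%) were counted, Tjp3 and Magi3 higher and Cldn10 and Cldn6 lower in KO, against 13.9% of all genes. The CPM of the groups did not overlap for 2 of 34 (5.88%), Magi3 among them, against 9.40% of all genes. DESeq2 and limma-voom, here always run with library quality weights, also gave 0 members after adjustment. They gave 6 (17.6%) and 10 (29.4%) at an unadjusted p under 0.05, against 15.5% and 20.5% of all genes by the same tools. By edgeR the members' shares lay below those of all genes, and by the other tools the unadjusted shares lay above. The smallest adjusted p of a member was 0.18 (Tjp3). With animal number series as a block, Tjp3 was at a log2 fold change of 0.62, Magi3 at 0.58, Cldn10 at -0.63 and Cldn6 at -0.86 (edgeR adjusted p = 0.296, 0.396, 0.505 and 0.372).

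The sizes of change that these data allow differ between members. For 21 of the 34 (61.8%), the 95% interval of the log2 fold change lies within 1 of 0, that is, within a doubling or halving, against 71.3% of all genes tested. The other 13 reach beyond a doubling or halving in at least one direction: Cldn1, Cldn2, Cldn5, Cldn6, Cldn9, Cldn10, Cldn15, Cldn16, Jam2, Jam3, Amotl1, Mpdz and Magi3. The median log2 fold change of the 34 was -0.07 beside -0.02 over all genes. It was -0.45 over the 14 claudins, of which Cldn8 and Cldn19 lay above 0 (with unscaled library totals also Cldn4, Cldn7 and Cldn12), and 0.15 over the 20 other members, of which 12 lay above 0. Within Control the claudins had a median coefficient of variation of 29.0%, against 20.4% for the others, with level not accounted for. It was 71.3% for the scarce Cldn5 (mean 0.861 CPM) but 17.3% for the scarce Cldn15 (mean 0.792 CPM). Among abundant claudins it was 49.5% for Cldn2, 16.6% for Cldn8 and 9.66% for Cldn12. The 18 members at 10 TPM or more in Control (a level scaled for exon length within each library) had a median log2 fold change of 0.11, and the 16 below it a median of -0.38.

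**Figure D1:**
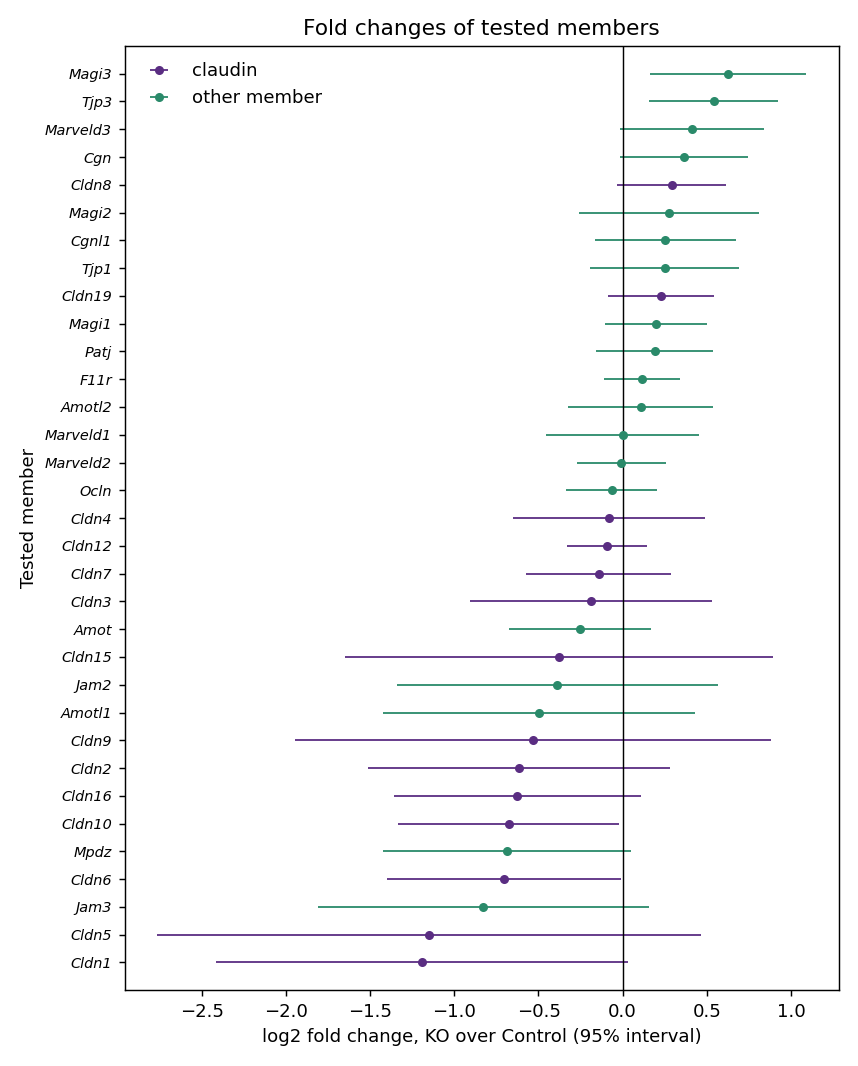
Log2 fold change of KO over Control (x axis) with its 95% interval for the tested genes reported here (y axis), claudins in purple and other members in green. Of the 14 claudins, Cldn8 and Cldn19 lie above 0, and the lowest points, such as Cldn1 at -1.19 and Cldn5 at -1.15, have wide intervals.

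Cldn8, whose product is a barrier claudin of the distal nephron, was the most abundant member per length in these tubules. Its Control level was 420 ± 42.6 TPM (SD, n = 4), rank 213 among all genes tested. It lies at chr16:88560828-88563183 on the minus strand (GRCm38, as are all gene positions here). Cldn8 was at 543, 365, 504 and 448 CPM in Control replicates 1 to 4 and at 586, 522, 541 and 625 CPM in KO replicates 1 to 4. The Control library with most Cldn8 lay above the lowest KO libraries, so the groups overlapped. Cldn8 had a log2 fold change of 0.29 ± 0.15 (SE; 95% interval -0.03 to 0.62; edgeR adjusted p = 0.404).

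The next levels per length in Control were those of F11r at 126 ± 16.2 TPM, Cgnl1 at 99.6 ± 31.5 TPM, Cldn2 at 95.4 ± 52.9 TPM and Cldn7 at 66.7 ± 13.4 TPM (SD, n = 4 each). In Control replicates 1 to 4, F11r was at 111, 149, 119 and 125 TPM and Cgnl1 at 53.5, 123, 106 and 117 TPM. F11r thus lay above Cgnl1 in each Control library, while the place of Cldn2 among them changed between libraries. Below them came Cldn10 at 52.6 ± 19.8 TPM, Cldn4 at 48.9 ± 12.8 TPM, Cldn16 at 48.0 ± 11.9 TPM, Ocln at 31.1 ± 2.78 TPM and Cldn12 at 29.4 ± 4.5 TPM (SD, n = 4 each). Neither the levels of Cldn10, Cldn4 and Cldn16 nor those of Ocln and Cldn12 can be ordered beyond their spread.

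**Figure D2:**
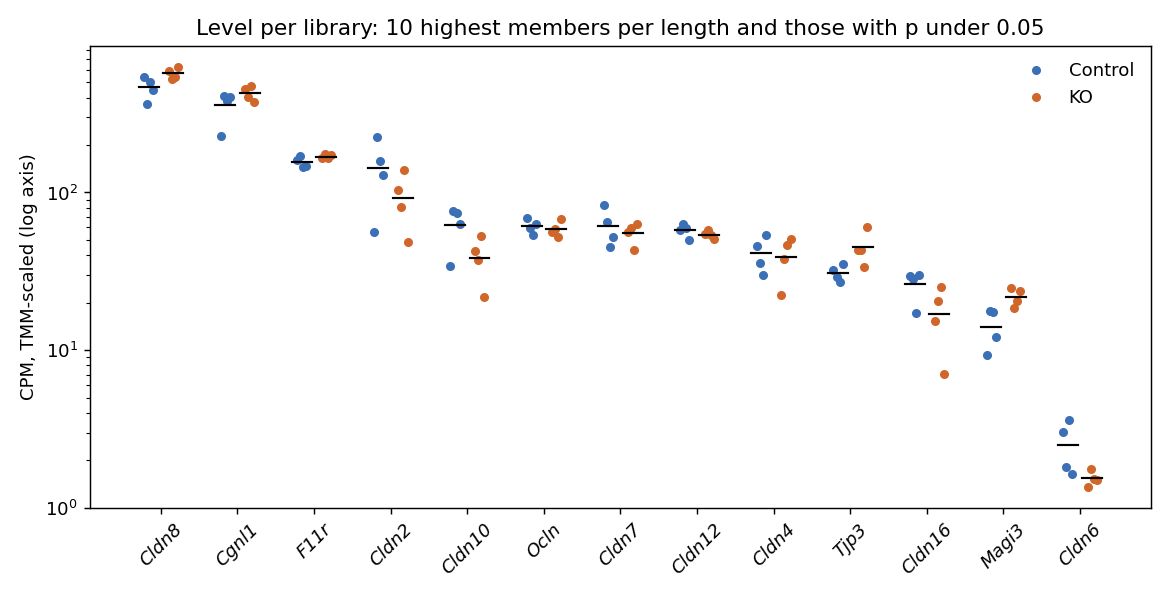
CPM per library on a log axis for the 10 members with the highest length-scaled Control level and the 3 further members with an unadjusted p under 0.05 (Tjp3, Magi3 and Cldn6). Each point is 1 library, black bars are group means, and only Magi3 of these 13 genes shows no overlap between the 4 Control and 4 KO libraries.

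Among the barrier claudins, 9 of 12 were tested, and their median log2 fold change was -0.19. Cldn7 (chr11:69964779-69967885) was at 82.7, 64.6, 45.3 and 52.3 CPM in Control and at 56.1, 59.4, 43.2 and 63.2 CPM in KO, with a log2 fold change of -0.14 ± 0.19 (SE; edgeR adjusted p = 0.752). Cldn4 (chr5:134945119-134946934) was at 46.1, 36.0, 30.1 and 53.7 CPM in Control and at 22.3, 37.8, 46.3 and 50.6 CPM in KO, with a log2 fold change of -0.08 ± 0.26 (SE; edgeR adjusted p = 0.901). The 2 groups overlap for both genes. Cldn3, which lies 39.3 kb from Cldn4 on chromosome 5, was lower in level, at 3.60 to 7.70 CPM in Control and 2.75 to 6.51 CPM in KO (log2 fold change -0.19 ± 0.32 SE). The direction of Cldn3, Cldn4 and Cldn7 turned under other settings, as did that of Cldn12, Ocln, Marveld1, Marveld2 and Amotl2, so no direction is drawn for these genes.

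Cldn19, the thick ascending limb partner of claudin-16, was at 28.9, 37.1, 28.9 and 43.2 CPM in Control and at 40.4, 41.6, 39.4 and 40.4 CPM in KO. The KO libraries lie close together inside the wider Control range, and the log2 fold change was 0.23 ± 0.14 (SE; edgeR adjusted p = 0.493). Cldn6, a claudin best known from embryonic epithelia, was scarce, at 3.02, 1.80, 3.60 and 1.65 CPM in Control and 1.36, 1.77, 1.53 and 1.5 CPM in KO. Its Control libraries split into a higher and a lower pair, and the lower pair lies at the level of KO. Cldn6 had a log2 fold change of -0.70 ± 0.31 (SE; 95% interval -1.40 to -0.01; edgeR unadjusted p = 0.0477, adjusted p = 0.354). Cldn1 was at 1.07 to 6.95 CPM in Control and 0.946 to 3.26 CPM in KO (log2 fold change -1.19 ± 0.55 SE, edgeR adjusted p = 0.37). Cldn5, the main endothelial claudin, and Cldn9 stayed under 2 CPM in all 8 libraries, with log2 fold changes of -1.15 ± 0.73 and -0.53 ± 0.64 (SE). The tails of Cldn6 and Cldn9 face each other 137 bases apart on chromosome 17.

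All 4 tested pore claudins had log2 fold changes below 0 (median -0.62), none past the test. Of all 14444 genes tested, 7644 lay below 0. Cldn19, whose product forms a pore with claudin-16, is counted here with the barrier claudins and lay above 0 (0.23). Cldn2 (chrX:139800828-139811386), a cation and water pore, was at 56.0, 226, 159 and 128 CPM in Control and at 104, 81.1, 139 and 48.2 CPM in KO. Its range within Control exceeds the difference between the group means, and the log2 fold change was -0.62 ± 0.40 (SE; 95% interval -1.52 to 0.28; edgeR adjusted p = 0.514). Cldn10 (chr14:118787908-118875489), which makes a cation and an anion pore from alternative first exons that gene counts cannot tell apart, was at 34.1, 75.9, 74.4 and 63.3 CPM in Control and at 42.3, 37.5, 53.1 and 21.8 CPM in KO. Control replicate 1 lay among the KO libraries and the other 3 Control libraries lay above all KO libraries. This gave a log2 fold change of -0.68 ± 0.30 (SE; 95% interval -1.34 to -0.02; edgeR unadjusted p = 0.0445, adjusted p = 0.345).

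Cldn16 (chr16:26463135-26482765) was at 29.4, 28.3, 17.2 and 29.9 CPM in Control and at 15.3, 20.5, 25.0 and 7.11 CPM in KO, with overlap through Control replicate 3. Its log2 fold change was -0.62 ± 0.33 (SE; 95% interval -1.36 to 0.11; edgeR adjusted p = 0.425). Cldn15 was at 0.627 to 0.962 CPM in Control and 0.100 to 1.34 CPM in KO (log2 fold change -0.38 ± 0.57 SE). Cldn12, which lacks the PDZ-binding tail of most claudins, was among the steadiest members, at 57.9, 63.5, 59.6 and 50.2 CPM in Control and 54.9, 57.7, 53.5 and 50.4 CPM in KO. Its log2 fold change was -0.10 ± 0.11 (SE; 95% interval -0.33 to 0.14; edgeR adjusted p = 0.702).

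Cldn2 levels ran with the markers of the proximal tubule, a segment outside the labelled one. The summed level of 9 proximal tubule markers was 1357 to 4705 CPM in Control and 1286 to 2957 CPM in KO, with no marker at 0 counts. The order of the 8 libraries by Cldn2 was the same as by that sum, with KO replicate 4 and Control replicate 1 lowest and Control replicates 3 and 2 highest. With 1 marker left out of the sum at a time, the order was still the same for 8 of the 9, and without Miox 4 of the 8 libraries held the same place. Cldn2 came to 3.83% to 4.80% of the sum in Control and 3.75% to 4.69% in KO, ranges that cover each other almost fully. Cldn10 held the same place as the sum in 6 of 8 libraries, at 1.61% to 2.51% of it in Control and 1.55% to 1.84% in KO. All 8 libraries share depth scaling, and the part of proximal tubule RNA in the Cldn2 and Cldn10 values was not tested.

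The summed level of 9 thick ascending limb markers was 9012 to 14161 CPM in Control and 4124 to 6936 CPM in KO, without overlap and with no marker at 0. Of these 9 genes 1 fell past the test, Umod (edgeR adjusted p = 0.0413), which encodes uromodulin, where 0.838% of all genes tested fell. Umod alone made up 58.8% to 78.6% of the sum, and without it the sums overlapped, at 2423 to 3218 CPM in Control and 1698 to 2517 CPM in KO. Cldn16 came to 0.152% to 0.314% of the sum in Control and 0.172% to 0.361% in KO, and Cldn19 to 0.237% to 0.412% in Control and 0.568% to 0.979% in KO. Against the sum without Umod, Cldn16 came to 0.711% to 1.04% in Control and 0.419% to 0.995% in KO, and Cldn19 to 1.02% to 1.34% in Control and 1.57% to 2.38% in KO. Cldn10 was also set against the sum with Umod and held the same place in 1 of 8 libraries. It came to 0.280% to 0.842% of that sum in Control and 0.528% to 0.765% in KO. The part of thick ascending limb RNA in the Cldn10, Cldn16 and Cldn19 values was not tested. For 8 members the lowest Control library was replicate 1 and the lowest KO library was replicate 4: Amotl1, Cgnl1, Cldn2, Cldn5, Cldn10, Jam3, Mpdz and Patj. Without these libraries, an alternative chosen after the data were seen, 0 members passed, and the log2 fold changes of Cldn2 and Cldn10 were -0.67 and -0.68 (edgeR adjusted p = 0.299 and 0.0861).

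**Figure D3:**
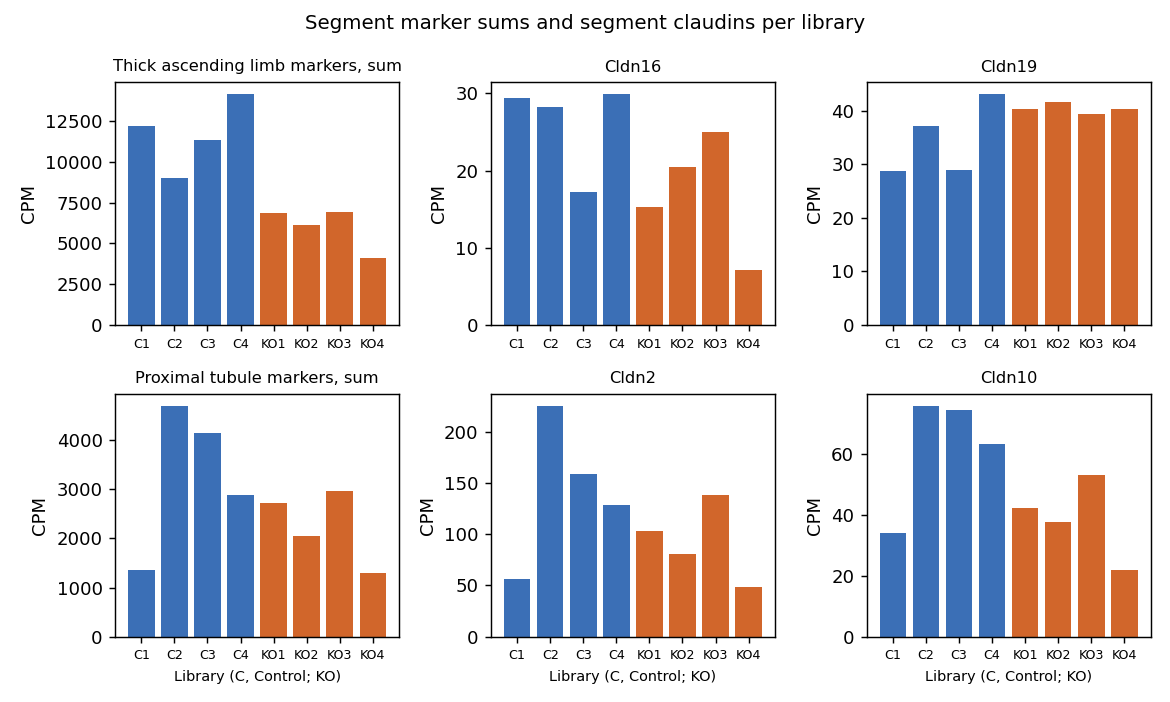
CPM per library (C, Control replicates 1 to 4; KO, replicates 1 to 4) for the summed thick ascending limb markers, Cldn16 and Cldn19 (upper row) and the summed proximal tubule markers, Cldn2 and Cldn10 (lower row). The bars of Cldn2 take the same order as the proximal tubule sum, lowest in KO 4 and highest in C2, while Cldn19 lies at 28.9 to 43.2 CPM over all 8 libraries beside a thick ascending limb sum, most of it Umod, of 9012 to 14161 CPM in Control and 4124 to 6936 CPM in KO.

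The marker lists of other cell types were summed in the same way. Connecting tubule and principal cell markers (8 genes) summed to 355 to 606 CPM in Control and 158 to 375 CPM in KO. All 8 had log2 fold changes below 0 (median -0.98), with 0 past the test. Of these, 7 were lower at an unadjusted edgeR p under 0.05, where 885 of all 14444 genes tested were lower. Cldn8 came to 73.9% to 153% of this sum in Control and 144% to 396% in KO, with overlap. Intercalated cell markers (8 genes) summed to 871 to 1137 CPM in Control and 993 to 1361 CPM in KO. Endothelial markers (9 genes) summed to 31.6 to 62.7 CPM in Control and 19.8 to 86.1 CPM in KO, and podocyte and parietal cell markers (7 genes) to 17.8 to 146 CPM and 14.9 to 105 CPM. Leukocyte markers (10 genes) summed to 10.7 to 13.4 CPM in Control and 20.8 to 77.3 CPM in KO, without overlap, but at 3.56 to 5.85 CPM and 5.04 to 15.3 CPM, with overlap, when the macrophage receptor gene Csf1r was left out. Fibroblast and pericyte markers (7 genes, Lum at 0) summed to 2.19 to 7.26 CPM in Control and 0.250 to 4.56 CPM in KO, and urothelial markers (8 genes, Upk2 at 0) to 0.522 to 2.02 CPM and 1.61 to 49.4 CPM. Psca alone was at 0.0522 to 0.289 CPM in Control and 1.26 to 49.0 CPM in KO, without overlap. Of 2 urothelial markers tested 1, Psca, rose past the edgeR test, where 1.23% of all genes tested rose. Without Psca the urothelial sums were 0.470 to 1.73 CPM in Control and 0.351 to 1.01 CPM in KO. Tubule injury markers (12 genes) summed to 2869 to 4103 CPM in Control and 2051 to 3308 CPM in KO, of which Spp1 was at least 73.6% in each library. Without Spp1 the injury sums were 295 to 433 CPM in Control and 365 to 778 CPM in KO. Of 9 tested injury markers 0 passed by edgeR, with 5 higher and 0 lower at an unadjusted p under 0.05. At that threshold, 1126 of all 14444 genes tested were higher and 885 lower. The median log2 fold change of the injury markers was 0.54. Their part in the members' values was not tested.

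Seen as a mixture, the claudin transcripts of every library were led by Cldn8. Per length, Cldn8 made up 53.0% ± 7.48 (SD, n = 4) of claudin transcripts in Control, with a range of 43.0% to 60.0%, and 63.9% ± 4.36 (SD, n = 4) in KO, with a range of 59.2% to 69.1%. The ranges overlap slightly. Cldn2 made up 11.6% ± 5.98 in Control and 7.38% ± 2.91 in KO, Cldn10 6.47% ± 2.12 and 3.95% ± 1.29, and Cldn16 6.03% ± 1.41 and 3.84% ± 1.74 (SD, n = 4 each). The shares of Cldn7 (8.45% and 7.56%), Cldn4 (6.15% and 5.71%), Cldn12 (3.68% and 3.40%), Cldn19 (2.19% and 2.52%) and Cldn3 (1.19% and 1.03%) were near each other in the groups. A share falls when another member's level rises, so these shares are not independent of each other.

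The total over all claudins, as CPM per kb of exon on TMM-scaled library sizes, came to 371 ± 10.2 for Control libraries and 378 ± 12.8 for KO libraries (SD, n = 4 each). By its parts, Cldn8 was at 197 ± 32.8 in Control and 241 ± 19.6 in KO, and the other claudins together at 174 ± 23.1 and 136 ± 16.7 (SD, n = 4 each). The non-claudin members together were at 185 ± 17.8 in Control (162 to 204) and 208 ± 3.19 in KO (204 to 211; SD, n = 4 each). The total depends on the scale. In TPM, which takes each library's own length-scaled total and no TMM factor, claudins summed to 704 to 844 in Control and 862 to 1064 in KO, without overlap.

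**Figure D4:**
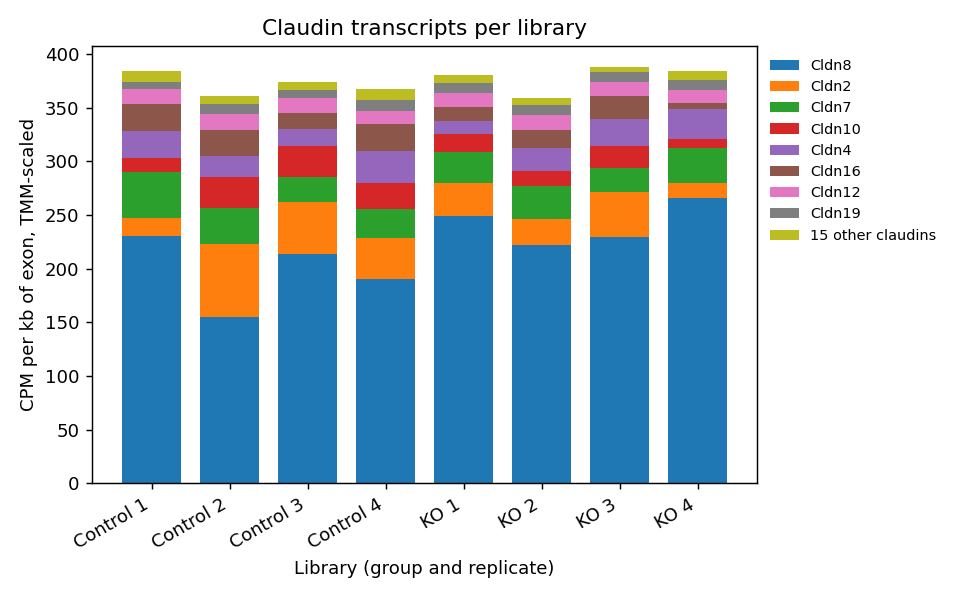
Stacked CPM per kb of exon of 8 claudins and the 15 others for each library, named by group and replicate. Bar heights stay near 371 in Control and 378 in KO, and the Cldn8 segment is the tallest in all 8 libraries, at 43.0% to 60.0% of the bar in Control and 59.2% to 69.1% in KO.

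The 9 untested claudins were Cldn11, Cldn13, Cldn14, Cldn17, Cldn18, Cldn20, Cldn22, Cldn23 and Cldn24. Cldn11, Cldn13, Cldn22 and Cldn24 had 0 counts in all 8 libraries, which for Cldn11, Cldn13 and Cldn24 allows up to 0.0296 CPM over the Control group and 0.0250 CPM over the KO group (3 counts, counting error only). All 995 bases of Cldn22 lie within exons of Wwc2 on the opposite strand, and Wwc2 held 33408 counts, so the 0 sets no limit for Cldn22. Cldn14, whose product restrains the claudin-16 and claudin-19 pore of the thick ascending limb, had 26 counts in Control, 20 of them in replicate 2, and 3 in KO. Cldn17, an anion pore claudin 53.8 kb from Cldn8, had 17 counts in Control and 49 in KO, 31 of those in KO replicate 1 and 11 in KO replicate 3. Cldn18 had 6 and 7 counts, Cldn20 had 5 and 2, and Cldn23 had 4 and 9 in Control and KO.

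Occludin and its relatives, which share the 4-span MARVEL fold, had a median log2 fold change of -0.00 over 4 genes. All 4 had a 95% interval within 1 of 0. Ocln (chr13:100496507-100552718) was at 69.3, 59.2, 53.5 and 63.2 CPM in Control and at 56.0, 58.7, 52.1 and 67.7 CPM in KO. The log2 fold change of Ocln was -0.07 ± 0.12 (SE; 95% interval -0.34 to 0.21; edgeR adjusted p = 0.824), and that of Marveld2 (tricellulin), 43.2 kb away, was -0.01 ± 0.12 (SE; 95% interval -0.27 to 0.26). Marveld1 was at 7.57 to 11.1 CPM in Control and 7.03 to 11.4 CPM in KO (log2 fold change -0.00 ± 0.20 SE). Marveld3 was at 10.4 to 15.7 CPM in Control and 12.8 to 22.6 CPM in KO (log2 fold change 0.41 ± 0.19 SE, edgeR adjusted p = 0.377).

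Among the junctional adhesion molecules, immunoglobulin-like proteins beside the claudin strands, F11r (which encodes JAM-A, chr1:171437535-171464603) was by far the highest. F11r was at 162, 169, 146 and 148 CPM in Control and at 165, 175, 165 and 172 CPM in KO, a log2 fold change of 0.11 ± 0.10 (SE; 95% interval -0.11 to 0.34; edgeR adjusted p = 0.624). Jam2 stayed at or under 1.00 CPM, with a log2 fold change of -0.39 ± 0.43 (SE). Jam3 ran from 2.78 to 10.8 CPM in Control and from 1.65 to 5.54 CPM in KO (log2 fold change -0.83 ± 0.44 SE, edgeR adjusted p = 0.428).

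Of the ZO scaffolds, which tie claudin tails to actin, none passed the test. Tjp3 (ZO-3, chr10:81273207-81291581, minus strand) was at 32.4, 29.2, 27.0 and 35.4 CPM in Control and at 43.0, 43.4, 33.9 and 60.3 CPM in KO. Only Control replicate 4 lay above the lowest KO library, replicate 3. The log2 fold change was 0.54 ± 0.17 (SE; 95% interval 0.16 to 0.93; edgeR unadjusted p = 0.0105, adjusted p = 0.18). The last 40 exon bases of Tjp3 overlap Apba3 on the opposite strand, a gene with 79.2% as many counts and a log2 fold change of 0.14 ± 0.20 (SE, edgeR adjusted p = 0.762). Tjp1 (ZO-1) was at 26.0 to 48.6 CPM in Control and 41.7 to 59.8 CPM in KO (log2 fold change 0.25 ± 0.20 SE).

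Both cingulins, cytoplasmic plaque proteins that bind ZO-1, had log2 fold changes above 0. Cgnl1 (paracingulin, chr9:71626509-71771602) was at 229, 411, 381 and 406 CPM in Control and at 453, 404, 472 and 373 CPM in KO. Control replicate 1 lay far below the other 7 libraries, which overlapped, and the log2 fold change was 0.25 ± 0.19 (SE; 95% interval -0.16 to 0.67; edgeR adjusted p = 0.564). Cgn was at 28.4 to 41.6 CPM in Control and 32.2 to 48.5 CPM in KO (log2 fold change 0.37 ± 0.17 SE, edgeR adjusted p = 0.375).

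Of the 5 multi-PDZ scaffolds, 4 had log2 fold changes above 0 (median 0.20), none past the test. Magi3 (chr3:104013259-104220374, minus strand) was at 9.26, 17.6, 17.4 and 12.1 CPM in Control and at 24.6, 18.5, 20.5 and 23.6 CPM in KO. All 4 KO libraries lay above all 4 Control libraries, at 18.5 CPM against 17.6 CPM at the closest. Magi3 had a log2 fold change of 0.63 ± 0.21 (SE; 95% interval 0.16 to 1.09; edgeR unadjusted p = 0.013, adjusted p = 0.202). Magi1 and Magi2 had log2 fold changes of 0.20 ± 0.14 and 0.28 ± 0.24 (SE). Patj, a partner of the Crumbs polarity complex, was at 58.4 to 99.2 CPM in Control and 82.1 to 97.2 CPM in KO (log2 fold change 0.19 ± 0.16 SE). Its paralogue Mpdz was at 2.19 to 6.11 CPM in Control and 2.00 to 3.52 CPM in KO (log2 fold change -0.69 ± 0.33 SE, edgeR adjusted p = 0.388).

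The angiomotins, which bind both PATJ and the growth regulator YAP, showed no shared direction. Amot was at 21.0 to 36.8 CPM in Control and 20.9 to 28.8 CPM in KO (log2 fold change -0.26 ± 0.19 SE). Amotl1 was at 1.66 to 5.85 CPM in Control and 2.10 to 4.56 CPM in KO (log2 fold change -0.50 ± 0.42 SE), and Amotl2 at 33.8 to 60.8 CPM and 47.8 to 67.8 CPM (0.11 ± 0.19 SE).

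The sequence before the gene start is shown for the 4 members with an unadjusted p under 0.05 and for Cldn2, which ran with the proximal tubule markers. RefSeq promoter windows of GRCm38.p6, from 250 bases before to 50 after a start, were found for 34 of the 43 members (49 windows). The 100 bases given for each end before both the RefSeq and the GENCODE gene start, are written 5′ to 3′ along the gene's strand, and carry capitals where a searched motif matches.
Cldn10, chr14:118787771-118787870, plus strand: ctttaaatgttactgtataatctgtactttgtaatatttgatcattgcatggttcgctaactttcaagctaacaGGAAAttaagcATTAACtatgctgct
Cldn6, chr17:23679149-23679248, plus strand: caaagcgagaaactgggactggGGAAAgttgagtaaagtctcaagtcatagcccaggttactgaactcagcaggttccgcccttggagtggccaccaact
Tjp3, chr10:81291582-81291681, minus strand: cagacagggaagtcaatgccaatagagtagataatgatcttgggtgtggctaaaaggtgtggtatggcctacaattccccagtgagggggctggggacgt
Magi3, chr3:104220407-104220506, minus strand: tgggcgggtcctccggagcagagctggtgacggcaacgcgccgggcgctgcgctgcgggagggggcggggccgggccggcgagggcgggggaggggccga
Cldn2, chrX:139800708-139800807, plus strand: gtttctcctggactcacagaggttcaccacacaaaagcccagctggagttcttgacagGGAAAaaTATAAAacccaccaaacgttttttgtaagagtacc

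The searched motifs were, on both strands, the TATA box (TATAAA), the grainyhead motif (AACNGGTT), GGAAA (the core bound by NFAT, the transcription factors that calcineurin activates), CAGGTG (the E-box bound by Snail) and GTTAAT (an HNF1 half-site). Printed Cldn10 sequence holds an NFAT core and an HNF1 half-site and is poor in G and C (31%, 1 CpG). It precedes the outermost Cldn10 start. Another Cldn10 window, at chr14:118854700-118854999, is 72% G and C with 27 CpG and holds none of the 5 motifs. Which Cldn10 start was in use was not tested. Cldn2 holds a TATA box just downstream of an NFAT core, Cldn6 holds 1 NFAT core, and the stretches of Tjp3 and Magi3 hold none of the 5 motifs. That of Magi3 is 83% G and C with 15 CpG. The whole windows from which the stretches were taken hold further matches. Those of Magi3 and Tjp3 hold an NFAT core, and those of Tjp3 and Cldn6 hold a Snail E-box. Over whole windows, GGAAA was found in 32 of 49 member windows (65.3%) and in 61.3% of all 32851 windows, a short motif found in most promoters. CAGGTG was found in 15 of 49 (30.6%) against 20.2%, GTTAAT in 7 of 49 (14.3%) against 7.10%, TATAAA in 3 of 49 against 13.6%, and AACNGGTT in 2 of 49 (Cgn and Cldn5) against 2.09%. Member windows had a median of 58.7% G and C and 9 CpG, against 52.7% and 7 over all windows. The part of base composition in the motif shares was not tested. Windows of 1 gene overlap, and a match is not a bound site.

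Other genes of the junction were read from lists, chosen like the members with earlier results of these data known. Of 17 adherens junction genes found, 16 were tested and 1 rose (1.23% of all genes tested rose), Nectin3, a cell adhesion protein that joins the adherens belt through afadin. Nectin3 was at 93.8, 115, 123 and 85.2 CPM in Control and at 188, 162, 182 and 219 CPM in KO, with every KO library above every Control library. The log2 fold change was 0.85 ± 0.15 (SE, edgeR adjusted p = 0.0228). Its call was lost without Control replicate 1 or 4, without KO replicate 1, 2 or 4, without Control replicate 1 and KO replicate 4 together, and with animal number series as a block (edgeR adjusted p = 0.0547 to 0.104), with log2 fold changes of 0.72 to 1.00 over all settings. The median of the list was 0.15.

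Among 34 tested regulators of tight junctions, of 35 found, 2 fell, Klhl3 and Wnk4, where 0.838% of all genes tested fell. Klhl3, a ubiquitin ligase adaptor that binds WNK kinases and claudin-8, was at 479, 432, 492 and 532 CPM in Control and at 286, 244, 305 and 256 CPM in KO. The groups of Klhl3 lie far apart, at a log2 fold change of -0.83 ± 0.12 (SE, edgeR adjusted p = 0.0142), and Klhl3 is also one of the 9 distal convoluted tubule markers. Its call was lost in 3 of 18 alternatives: the block, and the fits that left out Control replicate 4 or KO replicate 2 (edgeR adjusted p = 0.0575 to 0.0909). Wnk4, a kinase that phosphorylates claudins and controls the NaCl cotransporter, was at 614, 565, 604 and 801 CPM in Control and at 388, 452, 309 and 397 CPM in KO, without overlap. The log2 fold change of Wnk4 was -0.74 ± 0.16 (SE, edgeR adjusted p = 0.0486), and its call was lost in 13 of 18 alternatives, among them each of the 8 that leave out 1 library (edgeR adjusted p = 0.0565 to 0.183). The median of the list was 0.07. The distal convoluted tubule marker sum was also lower in KO, at 6144 to 10203 CPM against 11040 to 15448 CPM, and its part in the values of Klhl3 and Wnk4 was not tested.

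Of 18 polarity genes of the Crumbs, Par and Scribble complexes, 17 were tested and 0 passed by edgeR, with 1 at an unadjusted p under 0.05 and a median log2 fold change of 0.05. The smallest p was that of Lin7a, a Crumbs complex scaffold, at 2.73, 7.55, 7.31 and 4.90 CPM in Control and 14.1, 12.4, 14.3 and 10.4 CPM in KO, without overlap. Lin7a had a log2 fold change of 1.18 ± 0.29 (SE, edgeR adjusted p = 0.0786). Scrib was next, at 49.7, 50.5, 45.7 and 68.1 CPM in Control and 77.4, 69.9, 49.2 and 80.7 CPM in KO, with overlap (log2 fold change 0.37 ± 0.18 SE, edgeR adjusted p = 0.388). DESeq2, limma-voom and edgeR without a filter called 1 polarity gene, Lin7a (adjusted p = 0.00434, 0.0307 and 0.0472). Of 16 Hippo pathway partners of the angiomotins, 13 were tested and 1 fell (0.838% of all genes tested fell), Ccn2, a secreted protein whose gene is a target of YAP. Ccn2 was at 19.2, 27.8, 20.8 and 27.8 CPM in Control and at 10.2, 6.67, 13.9 and 7.46 CPM in KO, without overlap, at a log2 fold change of -1.32 ± 0.24 (SE, edgeR adjusted p = 0.0248). Its call was lost in 8 of 18 alternatives: without Control replicate 2, 3 or 4, without KO replicate 1, 2 or 4, without Control replicate 1 and KO replicate 4 together, and with the block (edgeR adjusted p = 0.0599 to 0.129). The median of the list was 0.10.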

How the data were processed

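Values in the deposited files are raw counts of reads for each Ensembl gene, which the authors did not normalize. GRCm38.p6 is the build and STAR 2.7.4a, fastp 0.20.0 and bcl2fastq 2.20 are the tools in the submitters' processing notes. Which program and annotation counted the reads, and with what strand setting, is not given in the sources used here, so reads of overlapping genes on opposite strands cannot be told apart. Of the 42416 identifiers, 42347 had a name in GENCODE vM21.

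Genes with at least 10 counts in 4 libraries were compared with edgeR 4.0.16 (TMM, quasi-likelihood test, genotype alone, 8 libraries, R 4.3.3), with Benjamini-Hochberg values over all genes at 0.05. SE is the fold change over the square root of F and approximate. CPM uses TMM-scaled library sizes, and TPM uses the merged exon length. DESeq2 1.42.0, limma 3.58.1 (voom with library quality weights), other scalings and filters were alternatives. So were a term for the file name's form, animal number series as a block and left-out libraries. Marker sums without 1 marker were added after the data were seen, and the test was checked on simulated data. Sequences were searched with Python 3.11.15.

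Members and lists were chosen with earlier results of these data known. Values per library are given for members past adjusted p 0.05, those with an unadjusted p under 0.05 and the 10 highest in Control TPM, and in other lists for up to 4 passing genes, or the 2 with the smallest p where none passed. Cldn19 and the targeted gene were added after their values were seen, and 1 member is not reported here. Labels name a different animal number for each library and no culture or litter, and replicate numbers here only name libraries.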

Additional observations from a re-analysis of the deposited data

Results flagged for a closer look

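Within groups of 4 libraries, 10 of 90 level sets held 1 library far from the other 3, judged by its gap to the nearest library as a share of the group's range (above Dixon's critical value at 95%). Chance flags about 1 in 20 groups. Of the 10, 7 were members. Control replicate 1 was low for Amotl2 (33.8 CPM against 59.5 to 60.8, gap share 0.95), Tjp1 (26.0 CPM against 47.2 to 48.6, gap share 0.939) and Cgnl1 (229 CPM against 381 to 411, gap share 0.833). Control replicate 3 was low for Cldn16 (17.2 CPM against 28.3 to 29.9, gap share 0.87). Control replicate 4 was high for Cgn (41.6 CPM against 28.4 to 30.4, gap share 0.843) and Marveld1 (11.1 CPM against 7.57 to 8.09, gap share 0.852), and KO replicate 3 was high for Amotl1 (4.56 CPM against 2.10 to 2.34, gap share 0.902).

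The other 3 were marker sums. Control replicate 1 was low for endothelial markers (31.6 CPM against 57.5 to 62.7, gap share 0.831) and high for tubule injury markers (4103 CPM against 2869 to 2951, gap share 0.933), and KO replicate 1 was high for distal convoluted tubule markers (10203 CPM against 6144 to 6731, gap share 0.855).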

How the results depend on the processing

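Under each of 18 alternatives 0 members passed in either direction, with a smallest adjusted p of 0.0545 (Cldn10, limma-voom). The genes called higher and lower over the whole table were 426 and 327 with DESeq2, 283 and 229 with limma-voom, 62 and 78 at 5 CPM or more, 105 and 94 with the file name term, 5 and 24 with the block, and 35 and 48 without Control replicate 1 and KO replicate 4 together. Leaving out 1 library gave 15 to 228 higher and 21 to 123 lower genes. The share of calls that were higher was 59.4% in the main setting, 73.0% with library totals, 44.3% at 5 CPM or more and 17.2% with the block. Library totals moved the median log2 fold change of all genes to 0.13, and values on that scale are relative to it.

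The median of the tested members turned to 0.079 with library totals, 0.096 at 5 CPM or more and 0.013 with limma-voom, and that of all genes to 0.0080 with limma-voom and 0.0082 with both libraries left out. Members near 0 turned too. Library totals gave Cldn4 0.068, Cldn7 0.020, Cldn12 0.051, Marveld1 0.14, Marveld2 0.14 and Ocln 0.090. Limma-voom gave Amotl2 -0.072, Cldn3 0.13, Cldn4 0.035, Cldn7 0.086 and Ocln 0.030. The block gave Cldn3 0.032, Cldn4 0.0042 and Marveld1 0.12, no filter gave Marveld1 0.0028, and without both libraries Amotl2 was at -0.045. Over fits without 1 library, Amotl2 ran from -0.067 to 0.19, Cldn3 from -0.35 to 0.0050, Cldn4 from -0.23 to 0.11, Cldn7 from -0.26 to 0.028, Marveld1 from -0.18 to 0.14, Marveld2 from -0.062 to 0.052 and the median of all genes from -0.033 to 0.0076.

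The 2 tight junction regulators that fell became 1 with library totals, at 5 CPM or more, with the file name term and without both libraries, 0 with the block, and 0 to 1 without 1 library. The adherens and Hippo calls became 0 with the block and without both libraries, and 0 to 1 without 1 library. Polarity genes had 1 higher with DESeq2, no filter and limma-voom. The cause of these shifts was not tested. No paired analysis was possible because the labels give no replicate numbers shared between the groups. Depth limits the 9 untested claudins and members under 2 CPM.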
